A study of Mus musculus with 15 samples.

Results

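The experiment described here is an acute knockdown of Stag1 in wild-type mouse embryonic stem cells (mESCs) that still carried STAG2. It holds 6 of the 15 RNA-seq libraries of the study, chosen by their labels: 3 replicates of wild-type cells that received a small interfering RNA against Stag1 (siStag1) and 3 that received a non-targeting control siRNA (siGLO). In these cells Stag1 mRNA fell to 20.6% of the control level (17.5% to 22.6% over the 3 replicate pairs), and 35 other genes were called changed. Transcripts of the naive pluripotency factors Tfcp2l1 and Tbx3 fell, whereas the germ cell genes Tex11 and Ddx4 and the SoxC factor gene Sox11 rose. Of 14508 genes tested, 36 (0.248%) were called changed, 15 higher (0.103%) and 21 lower (0.145%), at a Benjamini-Hochberg adjusted p under 0.1 in edgeR's two-sided quasi-likelihood test. When the replicate number entered the fit as a block, which compares libraries of the same number, 236 genes (1.63%) were called, 106 higher (0.731%) and 130 lower (0.896%). The fit without the block is the main one below, and results of the block are named as such. The main fit does not use the pairing by replicate number, so a gene not called in it can be called with the block.

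Cohesin is a ring of SMC1A, SMC3 and RAD21 that holds sister chromatids together and extrudes loops of chromatin, which stop where CTCF is bound. Outside meiosis each ring also carries 1 of the alternative subunits STAG1 and STAG2, which bind RAD21 and help to load and hold the ring on DNA. Mouse ES cells stand for the naive state of the early epiblast, in which a shared core of OCT4, SOX2 and NANOG works beside factors such as ESRRB, TFCP2L1, KLF4 and TBX3. Those factors are lost early when cells move towards the formative and primed states, in which DNMT3A, DNMT3B, POU3F1 and LEF1 are gained.

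The study compared wild-type cells with Stag1-/- and Stag2-/- cells and depleted Stag1 by siRNA in wild-type and Stag2-/- cells. All 6 libraries considered here came from the male line v6.5, grown on gelatin and collected 48 h after transfection with 50 nM siRNA, and polyadenylated RNA was sequenced. The control and knockdown cells thus shared genotype, transfection and time, and differed by the siRNA. Matches of the siRNAs to transcripts other than Stag1 were not examined. The Stag2-/- and Stag1-/- cells used as comparisons below are 1 CRISPR clone each, so a clone and its genotype cannot be told apart. The labels do not say whether replicates were separate cultures, and p-values then measure only the spread between these samples. Between 14982560 and 19005726 reads were counted on genes per library, with medians of 17700059 in siGLO and 17814073 in siStag1, and siStag1 replicate 1 was the shallowest. At this depth a floor of 3 counts equals 0.158 to 0.200 CPM (counts divided by library size), which covers counting error only. The first principal component of the 6 libraries, with 37.8% of the variance, followed the replicate number, and the second, with 28.6%, separated siGLO from siStag1. The 6 ES cell markers Pou5f1, Sox2, Nanog, Zfp42, Dppa5a and Esrrb were counted in every library, with a summed normalized count of 74304 to 80020 in siGLO and 66759 to 70445 in siStag1. None of the 6 was called. Normalized counts, used throughout, are counts divided by the effective library size and brought to 1 common depth.

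The knockdown was examined first. Normalized Stag1 counts were 2283, 2133 and 2008 in siGLO replicates 1, 2 and 3 and 516, 455 and 352 in siStag1 replicates 1, 2 and 3. Every knockdown library lay far below every control library. The log2 fold change was −2.28 (SE 0.14, edgeR adjusted p = 2.58e-07), and the 95% interval of the fitted level was 16.8% to 25.3% of the control. An exact two-sided permutation test of the 3 against 3 counts gave p = 0.1, the smallest it can give. Stag1 lies at chr9:100597798-100959375 on the plus strand of GRCm38. None of the 3 tested genes on either side of it was called, Nck1 and Pccb being the closest. Nck1, an adaptor of receptor tyrosine kinases 51.7 kb before Stag1, had a log2 fold change of 0.037 (95% interval −0.22 to 0.30). Pccb, a subunit of the mitochondrial propionyl-CoA carboxylase 22.7 kb beyond Stag1, had one of −0.065 (−0.31 to 0.18).

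The paralog Stag2 was not called. Its normalized counts were 2324, 2329.6 and 2324 in siGLO and 2766, 2732 and 2388 in siStag1, and every knockdown library lay above every control library. In 15.5% of all genes tested (2242) the 2 groups likewise did not overlap, in one direction or the other. The log2 fold change was 0.18 (95% interval −0.06 to 0.42, edgeR adjusted p = 0.971, or 0.582 with the block). Measured per kilobase of exon, the Stag2 to Stag1 ratio was 1.55 ± 0.10 (SD, n = 3) in siGLO and 8.61 ± 1.01 (SD, n = 3) in siStag1. The summed level of both was 463 ± 11.7 normalized counts per kilobase in siGLO and 355 ± 32.0 in siStag1. The ratio in siGLO rests on the division by exon lengths of 11781 bases for Stag1 and 8273 for Stag2, since the undivided counts of the 2 genes lay near each other there. These are transcript levels, and protein was not analysed here.

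**Figure D1:**
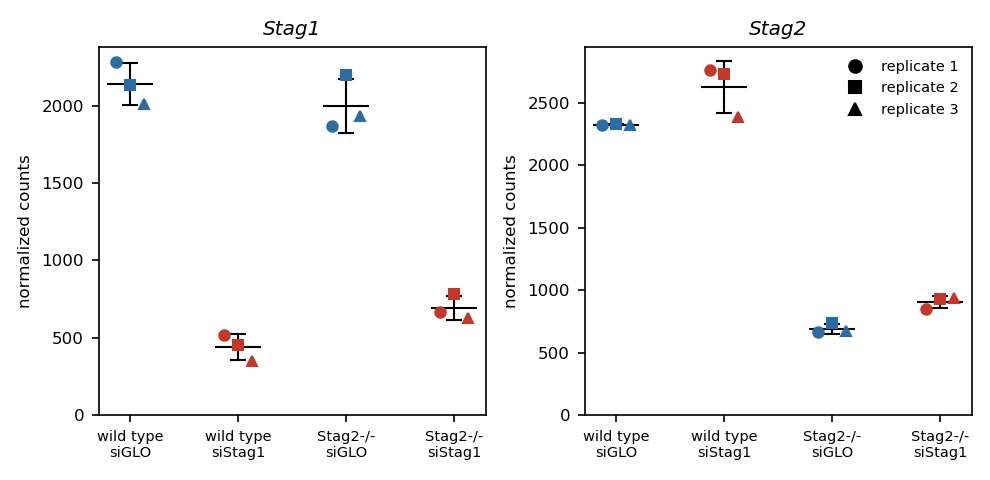
Normalized counts of Stag1 (left) and Stag2 (right) in each library of wild-type and Stag2-/- cells treated with siGLO (blue) or siStag1 (red), with the replicate number as symbol and bars showing mean ± SD (n = 3). In wild-type cells Stag1 went from 2008 or more to 516 or less, and in Stag2-/- cells from 1871 or more to 780 or less.

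No other cohesin gene was called. Of 22 tested genes of the ring, its loaders, releasers and regulators, Stag1, the siRNA target, was the only 1 called in either fit. With 0.248% of all genes called, or 1.63% with the block, the lack of other calls does not set the list apart. The median log2 fold change of the list was −0.023 against −0.0017 over all genes tested. Rad21, which encodes the subunit that closes the ring and binds the STAG proteins, had 8133, 7662 and 7428 normalized counts in siGLO and 6881, 6742 and 6821 in siStag1. Its groups did not overlap, yet the log2 fold change of −0.18 did not pass the test (edgeR adjusted p = 0.55). Smc1a, an arm of the ring, had 3687, 3656 and 3676 in siGLO and 3768, 3848 and 3829 in siStag1, with a 95% interval of −0.10 to 0.21 on the log2 scale. A change of 2-fold lay outside the intervals of both Rad21 and Smc1a.

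The called changes besides Stag1 were small in size, while their number depended on the fit, with 36 genes in the main fit, 236 with the block and 1493 with the block in a fit of only the 6 wild-type libraries. The median absolute log2 fold change of the 36 called genes was 0.63 and the lowest was 0.38. Among the 35 besides Stag1, 8 passed 1 on the log2 scale, and values ran from −1.98 (1700042O10Rik) to 1.31 (Prom2). In all 36 genes the 3 knockdown libraries lay apart from the 3 control libraries, against 15.5% of all genes tested. All 3 same-numbered pairs also moved in the direction of the call. The calls were made from these same libraries, so neither pattern is further evidence for them. Called genes were also well counted, with a median normalized count of 908 against 382 over all genes tested. For 11730 genes (80.9%) the 95% interval of the log2 fold change lay within 1 of 0. Among the 6374 genes with a mean normalized count of 500 or more, 6345 (99.5%) lay within 1 and 5698 (89.4%) within 0.5. An unadjusted p under 0.05 was found for 922 genes (6.36%). The called genes were spread over 15 chromosomes, and the closest pair, Lrrk2 and Prickle1 on chromosome 15, were 1683 kb apart.

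The number of calls rested on each of the 6 libraries. It was 15, 2 and 6 without siGLO replicate 1, 2 or 3, and 3, 1 and 3 without siStag1 replicate 1, 2 or 3. Libraries of Stag2-/- cells are not part of the contrast but share its fit, and it was 57 without their siGLO replicate 1 and 28 to 46 without any other 1 of them. Stag1 was called in each of these 6 fits, Tbx3 in 4, Tfcp2l1 in none, and no other gene described here in more than 3. The log2 fold changes themselves moved little, from −0.97 to −0.80 for Tbx3 and from −0.73 to −0.68 for Tfcp2l1.

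**Figure D2:**
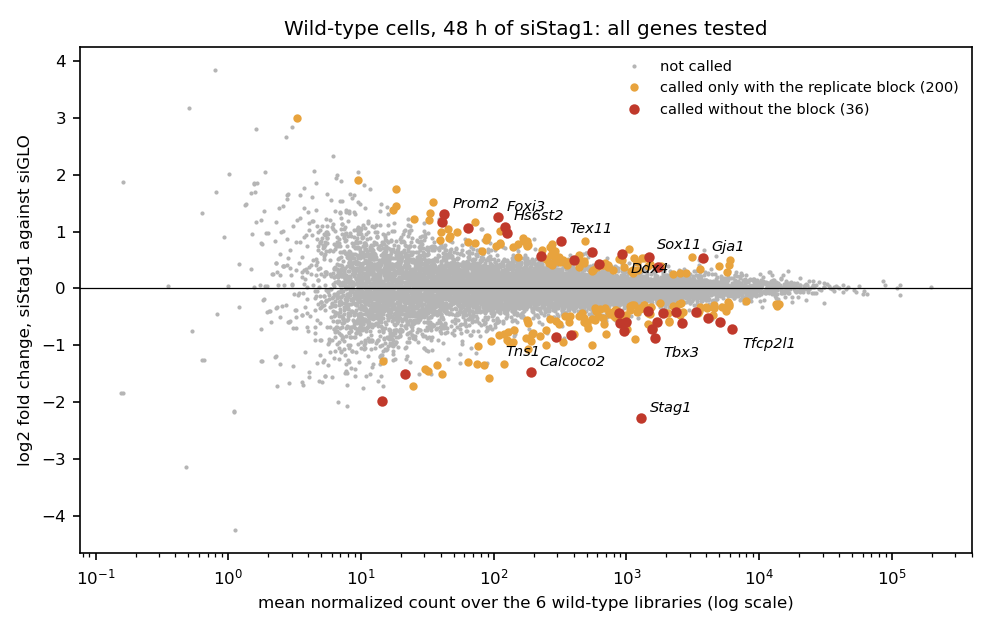
Log2 fold change of siStag1 over siGLO in wild-type cells against the mean normalized count over the 6 libraries (log scale), 1 point per gene tested. Red points are the 36 genes called without the block, orange points the 200 called only with it and grey points the rest, and Stag1 at −2.28 stands below all other called genes.

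Transcription factor genes of the naive network were among the falls. Tfcp2l1, which encodes a factor downstream of LIF and STAT3 that sustains self-renewal, had 7597, 7531 and 8046 normalized counts in siGLO and 4834, 4593 and 4721 in siStag1. The lowest control library was thus well above the highest knockdown library, at −0.71 on the log2 scale (SE 0.13, edgeR adjusted p = 0.0481). Tbx3, a T-box repressor of the same network, had 2175, 2006 and 2234 in siGLO and 1142, 1045 and 1316 in siStag1. Its log2 fold change was −0.87 (SE 0.13, adjusted p = 0.0225), and its groups did not overlap either.

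Other called genes also fell. Below, log2 followed by a value stands for the log2 fold change of siStag1 over siGLO. Tns1, whose product tensin 1 links actin to integrin adhesions, went from 349, 364 and 416 to 211, 207 and 208 (log2 −0.85, SE 0.15, adjusted p = 0.0348). Its control and knockdown libraries formed separate ranges, and its values in siStag1 were nearly the same in all replicates. Abca1, the cholesterol exporter, went from 481, 479 and 498 to 301, 279 and 243 (log2 −0.83, SE 0.17). Ly75, an endocytic receptor known from dendritic cells, went from 1593, 1995 and 2232 to 1092, 1169 and 1267 (log2 −0.72, SE 0.12). Atp11a, a phospholipid flippase, fell as well (log2 −0.62), and its exons overlap those of a counted gene on the other strand, Gm15350, so that reads cannot be told apart without strand information.

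Calcoco2, an autophagy receptor, had the deepest fall among genes called in the main fit with at least 50 normalized counts besides Stag1. It went from 346, 291 and 205 in siGLO to 137, 85.4 and 82.1 in siStag1, or −1.47 on the log2 scale (SE 0.23, adjusted p = 0.0306). Spp1, the secreted matrix protein osteopontin, went from 7102, 5709 and 5451 to 4460.4, 3992 and 3750.4 (log2 −0.58, SE 0.10). In both genes the counts were highest in siGLO replicate 1 and in siStag1 replicate 1 within their groups. Ckb, the brain-type creatine kinase, went from 3046, 3002 and 3389 to 2054, 2038 and 2139 (log2 −0.60, SE 0.12). Ccnd3, the cell cycle regulator cyclin D3, went from 4524, 5312 and 4672 to 3287, 3587 and 3271 (log2 −0.52, SE 0.09), with exons that overlap Bysl on the other strand. Further falls were seen in Tmem64 (log2 −0.59), Nfatc2ip (log2 −0.58), Jmy (log2 −0.43), Zbtb44 (log2 −0.42), the splicing regulator Rbfox2 (log2 −0.42), the mitochondrial superoxide dismutase Sod2 (log2 −0.41) and the glycogen synthase Gys1 (log2 −0.40, overlapping Ruvbl2). 1700042O10Rik and the class II antigen gene H2-Eb1 fell from low counts, the former from 23.3, 26.4 and 19.3 to 8.14, 5.51 and 3.86 and the latter from 31.7, 31.5 and 31.9 to 10.5, 12.9 and 9.65.

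The rises were led by genes with low counts. Foxi3, a forkhead transcription factor, went from 77.4, 61.9 and 52.2 in siGLO to 166, 166 and 126 in siStag1, which is 1.26 on the log2 scale (SE 0.21, edgeR adjusted p = 0.0328). Hs6st2, a heparan sulfate 6-O-sulfotransferase, went from 89.6, 81.2 and 62.8 to 174, 174 and 148 (log2 1.09, SE 0.21). The kinase gene Lrrk2 went from 27.1, 29.4 and 18.4 to 62.8, 53.2 and 53.1 (log2 1.17, SE 0.22). In each of these genes the highest control library lay below the lowest knockdown library. Prom2 (log2 1.31), Serf1 (log2 1.07) and Prickle1 (log2 0.97), a component of planar cell polarity, rose from similar levels.

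Other called genes rose from higher counts. Sox11, a SoxC transcription factor best known in neural progenitors, went from 1171, 1219 and 1175 to 1747, 1810.0 and 1670.0 (log2 0.55, SE 0.10, adjusted p = 0.0379). Gja1, which encodes the gap junction protein connexin 43, went from 3100.5, 3369 and 2795 to 4368, 4792 and 4312 (log2 0.54, SE 0.10). In both genes every knockdown library lay above every control library. Serpine2, an inhibitor of serine proteases, went from 326, 350.0 and 316 to 462, 501 and 439 (log2 0.50). Cacnb3, a calcium channel subunit, rose by 0.64, Sepp1, the plasma selenium carrier, by 0.56 and Nsmaf by 0.43 on the log2 scale. Exons of Sepp1 overlap Ccdc152 and those of Nsmaf overlap Sdcbp on the other strand.

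**Figure D3:**
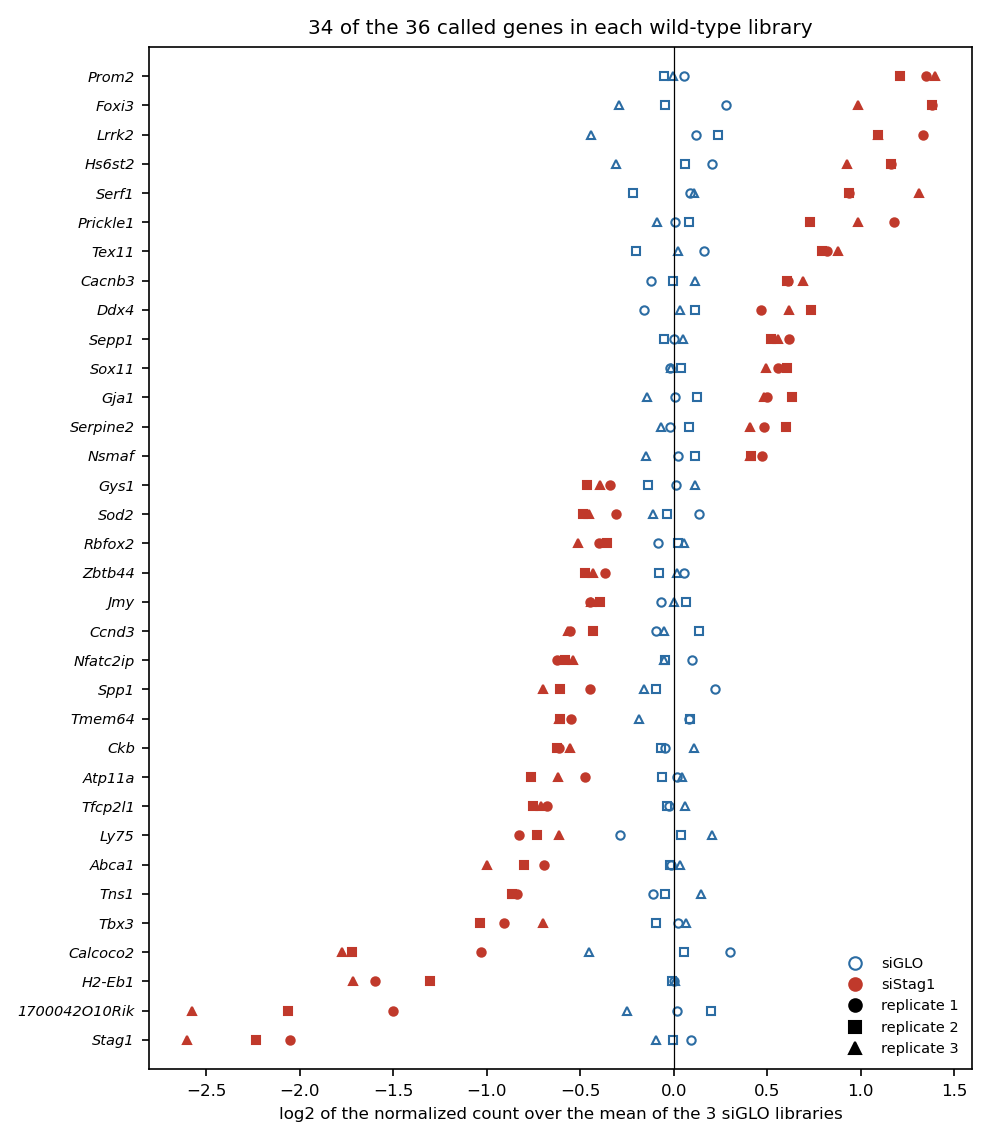
34 of the 36 called genes in the 6 wild-type libraries, as log2 of the normalized count over the mean of the 3 siGLO libraries (blue open symbols siGLO, red filled symbols siStag1, symbol shape the replicate number). Genes are ordered by log2 fold change from Stag1 at the bottom to Prom2 at the top, and in each of these genes the red symbols lie on 1 side of the blue ones.

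Promoters of 4 of the genes described here are printed because CTCF sites near gene starts are where cohesin can be held. Tfcp2l1 and Tns1 fell, Sox11 rose, and Dnmt3b, described with the formative genes, rose with the block. Each sequence covers the 250 bases before the RefSeq start (GRCm38.p6), 5′ to 3′ on the gene's strand, and capitals mark the CTCF core motif AGGNGGC on either strand.
Tfcp2l1, chr1:118627695-118627944, plus strand: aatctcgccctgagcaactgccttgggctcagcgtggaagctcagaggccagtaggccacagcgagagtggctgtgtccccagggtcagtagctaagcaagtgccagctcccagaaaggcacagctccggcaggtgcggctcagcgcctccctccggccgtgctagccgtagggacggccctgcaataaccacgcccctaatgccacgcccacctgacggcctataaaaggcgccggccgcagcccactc
Tns1, chr1:74124549-74124798, minus strand: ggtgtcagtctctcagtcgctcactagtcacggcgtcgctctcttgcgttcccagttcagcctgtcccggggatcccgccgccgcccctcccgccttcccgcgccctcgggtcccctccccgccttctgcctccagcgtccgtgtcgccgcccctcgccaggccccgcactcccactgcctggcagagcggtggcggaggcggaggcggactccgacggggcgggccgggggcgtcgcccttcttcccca
Sox11, chr12:27342719-27342968, minus strand: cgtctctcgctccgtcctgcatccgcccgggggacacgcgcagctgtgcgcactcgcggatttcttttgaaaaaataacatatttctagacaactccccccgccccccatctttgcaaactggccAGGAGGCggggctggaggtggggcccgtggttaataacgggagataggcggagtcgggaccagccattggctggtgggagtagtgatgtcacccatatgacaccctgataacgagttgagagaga
Dnmt3b, chr2:153649199-153649448, plus strand: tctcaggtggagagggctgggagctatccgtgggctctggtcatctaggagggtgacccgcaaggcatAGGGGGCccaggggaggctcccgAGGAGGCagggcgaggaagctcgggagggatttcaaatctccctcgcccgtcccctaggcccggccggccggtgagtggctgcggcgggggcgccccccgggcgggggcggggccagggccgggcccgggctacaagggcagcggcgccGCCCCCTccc

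The window of Dnmt3b held 3 copies of the motif, that of Sox11 held 1, and those of Tfcp2l1 and Tns1 held none. The motif is GC-rich, and so are these windows, at 75.2% GC in Dnmt3b, 58% in Sox11, 65.2% in Tfcp2l1 and 74.4% in Tns1 against a median of 52.4% over all promoters. It occurred in 8214 of the 32851 RefSeq promoters (25.0%) and in 34.8% of the 13545 that belong to tested genes. Among the called genes, 27 had 32 entries, of which 15 (46.9%) held it, and among genes called with the block 96 of 242 entries (39.7%) held it. A match of these letters describes the window alone.

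Naive pluripotency genes as a group sat lower in siStag1 cells. The gene lists here and below were chosen with earlier results of these data known. Their counts, set beside the share of all genes, therefore describe the members and are not tests. Of the 15 tested, 14 had a negative log2 fold change, with a median of −0.40 against −0.0017 over all genes tested. Tfcp2l1 and Tbx3 passed the test (2 of 15, against 0.145% of all genes), and with the block Klf2, Prdm14, Nr5a2 and Zfp42 fell as well, 6 in all against a background of 0.896% of genes. Prdm14, a repressor of FGF signalling and of DNA methylation genes, had 469, 418 and 438 normalized counts in siGLO and 227, 226 and 234 in siStag1, with a log2 fold change of −0.95 (edgeR adjusted p = 0.175, or 0.0285 with the block). Klf2, a Kruppel-like factor, had 1891, 1610.2 and 1782 in siGLO and 1089.8, 1146 and 1205 in siStag1 (log2 −0.62, adjusted p = 0.286, or 0.035 with the block). Neither gene's groups overlapped. Nr5a2, an orphan nuclear receptor, had 999, 889.8 and 882 in siGLO and 694, 721 and 656 in siStag1 (log2 −0.42, adjusted p = 0.272, or 0.0597 with the block). Zfp42, known as REX1, had 7939, 6257 and 5092 in siGLO and 5402, 4906 and 4297 in siStag1, and its groups overlapped although each same-numbered pair was lower in siStag1 (log2 −0.40, adjusted p = 0.508, or 0.0662 with the block).

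The remaining naive factors did not pass either fit. Klf4 had 3840.4, 3851 and 3985 in siGLO and 3126, 2902 and 3153 in siStag1, with a log2 fold change of −0.35 (95% interval −0.67 to −0.02). Esrrb had 12391, 11006 and 11349 in siGLO and 9555, 8838 and 9359 in siStag1, with one of −0.32 (−0.62 to −0.03). In both the knockdown libraries were all below the control libraries. The shared pluripotency core was not called in either fit (0 of 12, median −0.047). With 0.248% of all genes called, or 1.63% with the block, 0 calls among 12 genes do not set the core apart from other genes. Pou5f1, which encodes OCT4, had 21491, 19659.6 and 18969 in siGLO and 19277, 19499 and 19198 in siStag1 (log2 −0.05, 95% interval −0.33 to 0.22), and its groups overlapped. Sox2 had 8852, 9412 and 9453 in siGLO and 7862, 8449 and 9160.1 in siStag1 (log2 −0.12, −0.30 to 0.06). Nanog, which varies between ES cells of 1 culture, had 5589, 4917 and 5004 in siGLO and 3529.9, 3366 and 3815 in siStag1, apart in every library, but its interval was wide (log2 −0.53, −1.25 to 0.18, adjusted p = 0.955). In bulk RNA a lower level in each cell and fewer cells that express a gene cannot be told apart.

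Formative and primed genes leaned the other way. Of 16 tested, 14 had a positive log2 fold change, with a median of 0.25. None was called without the block, and 5 rose with it (Dnmt3a, Dnmt3b, Pou3f1, Lef1 and Sox3), against a background of 0.731%. Dnmt3b, a de novo DNA methyltransferase, had 5779, 5014 and 4204 in siGLO and 7798, 7377 and 5944 in siStag1 (log2 0.49, edgeR adjusted p = 0.351, or 0.00105 with the block). Its groups did not overlap, and siStag1 was higher in each same-numbered pair. Dnmt3a had 6283, 4849 and 4155 in siGLO and 8004, 6886 and 5436 in siStag1 (log2 0.41, adjusted p = 0.958, or 0.0647 with the block), with overlapping groups and with exons shared with Dnmt3aos on the other strand. Pou3f1, a POU factor of the early epiblast, had 381, 339.9 and 328 in siGLO and 583, 549 and 445 in siStag1 (log2 0.59, adjusted p = 0.0428 with the block). Lef1, a nuclear effector of WNT signalling, had 263, 133 and 208 in siGLO and 376, 311 and 357 in siStag1 (log2 0.78, adjusted p = 0.00721 with the block). Sox3, a SoxB1 factor of neural ectoderm, had 141, 101 and 123 in siGLO and 235, 185 and 232 in siStag1 (log2 0.83, adjusted p = 0.0348 with the block), and neither Lef1 nor Sox3 overlapped between groups.

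Some germline genes rose. Of 20 tested, 17 had a positive log2 fold change (median 0.34). Ddx4 and Tex11 were called (2 of 20, against 0.103% of all genes called higher), and with the block Mael, Tdrd1, Piwil2 and Slc25a31 rose too (6 of 20, against 0.731%). Tex11, an X-linked gene needed for meiotic crossovers, had 258, 201 and 235 in siGLO and 408, 401 and 425 in siStag1 (log2 0.83, SE 0.13, adjusted p = 0.0306). Ddx4, the germ cell RNA helicase also known as Vasa, had 655, 793 and 749 in siGLO and 1012, 1217 and 1122 in siStag1 (log2 0.61, SE 0.11, adjusted p = 0.0348). Both genes were expressed in the control cells already, and their rise was below 2-fold. Piwil2, Mael and Tdrd1 act in the piRNA pathway that silences transposons. Piwil2 had 1018, 943 and 812 in siGLO and 1357, 1418 and 1233 in siStag1 (log2 0.53, adjusted p = 0.0727 with the block), Mael 268, 230.3 and 179.7 in siGLO and 398, 357 and 315 in siStag1 (log2 0.66, adjusted p = 0.0274 with the block) and Tdrd1 72.8, 53.8 and 60.9 in siGLO and 135, 98.2 and 107 in siStag1 (log2 0.85, adjusted p = 0.0877 with the block). Slc25a31, the ADP/ATP carrier of germ cells, had 29.9, 26.4 and 31.9 in siGLO and 53.5, 67.9 and 60.8 in siStag1 (log2 1.05, adjusted p = 0.0877 with the block).

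**Figure D4:**
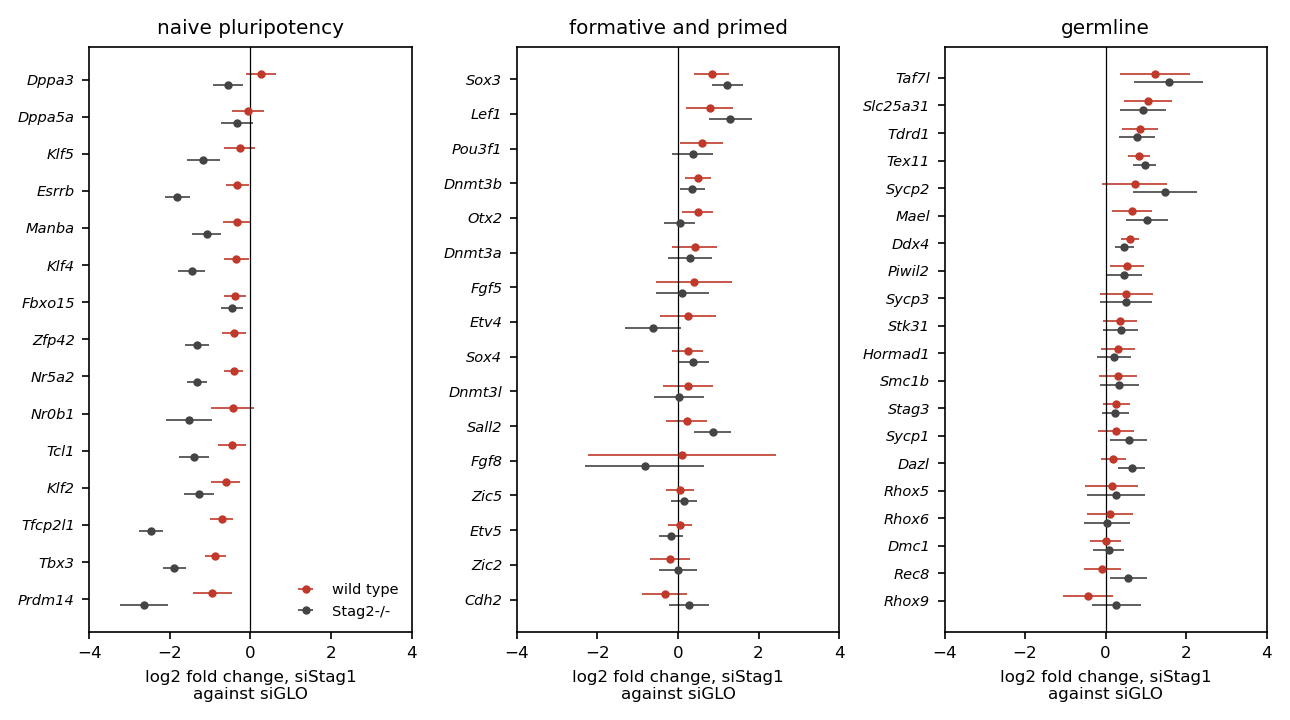
Log2 fold change under siStag1 with its 95% interval for every tested gene of 3 lists (15 naive, 16 formative and primed and 20 germline genes), in wild-type cells (red) and in Stag2-/- cells (dark grey). In wild-type cells 14 of 15 naive genes lie left of 0, while 14 of 16 formative and 17 of 20 germline genes lie right of it.

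Single members of other lists were called with the block alone. The feedback inhibitors of ERK signalling Spry1, Spry2 and Dusp6 rose, 3 of 18 ERK targets tested against 0.731% of all genes (median of the list 0.21), Dusp6 from 1016, 1181 and 843 to 1286, 1674 and 1219 (log2 0.46, adjusted p = 0.0348 with the block). Jam2, a junctional adhesion molecule, and Prdm14 were the 2 of 9 genes in or beside Super-enhancer Domains that fell, against 0.896% of all genes, Jam2 from 2165, 1871 and 1915 to 1224, 1182 and 1216 (log2 −0.72, adjusted p = 0.0292 with the block). These domains are loops that enclose a super-enhancer and its gene. The 9 genes are those for which the study plotted expression from this series, so the list is not independent of these libraries. Tfap2c, an AP-2 factor of trophoblast and germ cells and the only 1 of 11 trophoblast genes called, fell from 839, 742 and 874 to 591, 457 and 549 (log2 −0.62, adjusted p = 0.0648 with the block). Of 16 NODAL and activin genes 1 was called in each direction, the NODAL cofactor Foxh1 higher (log2 0.42) and the activin subunit gene Inhbb lower (log2 −0.88). Lgr4 (log2 0.27) and Lef1 were the 2 of 31 WNT pathway genes called, Hes6 (log2 0.51) the 1 of 19 NOTCH genes and Btg2 (log2 0.51) the 1 of 21 p53 targets, each higher. Of 35 imprinted genes 2 were called higher, and Meg3, a maternally expressed noncoding RNA, and Cdkn1c, an inhibitor of cyclin-dependent kinases, rose by 0.55 and 0.70 on the log2 scale.

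The Zscan4 genes, which mark a rare and transient two-cell-like state, were uneven between the control libraries. Zscan4a had 231, 92.3 and 86 in siGLO and 73.3, 40.4 and 25.1 in siStag1, and siGLO replicate 1 held more than both other controls together. Zscan4a (log2 −1.58), Zscan4d (log2 −1.35) and Zscan4e (log2 −1.30) fell with the block alone (3 of 9, against 0.896% of all genes), and all 9 tested genes of the list were negative (median −1.19). Copies of this family are nearly identical, so their separate values are uncertain, and in Stag2-/- cells the median of the same list was 0.49.

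Many lists held no call in either fit, where 0.248% of all genes were called without the block and 1.63% with it. These were genes of DNA replication (30 tested, median −0.044), mitosis (28, 0.092), the DNA damage response (27, −0.041), condensin and SMC5/6 (13, 0.027), Polycomb complexes (30, 0.027), the interferon response (21, 0.019), the integrated stress response (22, −0.079), BMP signalling (21, 0.10), clustered protocadherins (23, 0.11) and ribosomal proteins (48, 0.090). The signs within them were not always balanced, with 26 of 28 mitosis and 45 of 48 ribosomal protein genes positive and 22 of 30 replication and 18 of 22 stress response genes negative. Interferon response genes ran from −1.16 to 2.34 on the log2 scale, and 7 of the 21 had an unadjusted p under 0.05, against 6.36% of all genes. Primitive endoderm genes were not called either (13, median −0.094), and Gata6, their early regulator, had 495, 425 and 544 in siGLO and 589.7, 522 and 580.2 in siStag1. Sox17, a partner in that lineage, had 262 ± 4.7 and 239.6 ± 13.4 (mean ± SD, n = 3). Nes, a neural progenitor filament gene, had 745, 697 and 673 in siGLO and 976, 890.3 and 905 in siStag1 (log2 0.39, 95% interval −0.03 to 0.81).

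Markers of other cell types were compared as summed normalized counts of 6 genes each. Feeder fibroblast markers summed to 294 to 552 in siGLO and 287 to 361 in siStag1, of which Lum was at 0 in all 6 libraries. Primitive endoderm markers summed to 1823 to 2042 and 1802 to 2070, mesoderm markers to 281 to 383 and 278 to 354, and neural markers to 2514 to 3415 and 2717 to 3150. These 4 sums overlapped between groups. Trophoblast markers summed to 928 to 1016 in siGLO and 581 to 699 in siStag1, of which Tfap2c made up most. Two-cell-like markers summed to 166 to 512 and 97.5 to 177. None of these markers was called without the block, and their part in the results above was not tested.

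The same siRNA was used in Stag2-/- cells, in libraries that the wild-type comparison does not share. Their Stag2 mRNA was 662, 738 and 673 in siGLO against 2324, 2329.6 and 2324 in wild-type siGLO. Stag1 went from 1871, 2199 and 1932 to 666, 779.6 and 628 there, 34.5% of the control (32.5% to 35.6% by pair). The knockdown was thus shallower by 0.75 on the log2 scale, a difference that did not pass edgeR's test (adjusted p = 0.254) but passed with the block (adjusted p = 0.0253). In these cells siStag1 changed 924 genes (6.37%), 432 higher (2.98%) and 492 lower (3.39%), against 36 in wild-type cells. That number was 1484, 535 and 416 without Stag2-/- siStag1 replicate 1, 2 or 3. It was 2049 with the block. In fits of only the libraries compared the counts were 224 in Stag2-/- and 126 in wild-type cells.

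Most genes called in wild-type cells had the same direction without STAG2. Of the 36, 35 (97.2%) had the same direction in Stag2-/- cells, against 60.7% of all genes tested, and 29 (80.6%) were called there in that direction. These 29 are 3.14% of the calls in Stag2-/- cells. The change was larger in Stag2-/- cells in 17 genes and smaller in 18, and the median size of the change on the log2 scale was 0.63 in wild-type and 0.71 in Stag2-/- cells. Calcoco2, for example, had log2 fold changes of −1.47 in wild-type and −1.62 in Stag2-/- cells, and Tex11 of 0.83 and 0.97. With the block, 224 of 236 had the same direction and 135 were called in it, while 1 was called in the other. The genes not called in Stag2-/- cells were Tns1, Abca1, Jmy, Sox11, Serf1, Hs6st2 and Foxi3.

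The test of the difference between genotypes separated 4 of the 36 genes, Tfcp2l1, Tbx3 and Tns1 among them, of 23 called over all genes (0.159%). That count was 138 with the block, 13 and 15 without wild-type siGLO replicate 2 or 3, 13 without any 1 of the wild-type siStag1 replicates, and 76 without Stag2-/- siStag1 replicate 1. Tfcp2l1 had log2 fold changes of −0.71 in wild-type and −2.47 in Stag2-/- cells, where it went from 2800.2, 4688 and 4219.8 to 676, 732 and 702, a difference of −1.76 (SE 0.19, edgeR adjusted p = 0.000703). For Tbx3 the values were −0.87 and −1.89 (difference −1.02, SE 0.18, adjusted p = 0.0444). Both genes shared a fall that was deeper without STAG2. Tns1 differed in the other direction, with −0.85 in wild-type cells and 0.25 in Stag2-/- cells, where it did not pass the test (difference 1.11, SE 0.22, adjusted p = 0.0676). With the block Stag1 (adjusted p = 0.0253) and Foxi3 were called too, Foxi3 with 1.26 in wild-type and 0.30 in Stag2-/- cells (adjusted p of the difference 0.0724 with the block and 0.418 without). The difference was called in Tfcp2l1 without any 1 library, whereas Tbx3 lost it without wild-type siGLO replicate 2 or siStag1 replicate 1 or 3, and Tns1 lost it without any 1 of the 6 wild-type libraries or Stag2-/- siStag1 replicate 2 or 3.

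Naive genes were set side by side in both genotypes. In Stag2-/- cells 14 of the 15 were called lower, against 3.39% of all genes, with a median log2 fold change of −1.33. In wild-type cells 2 were called lower, with a median of −0.40, and the difference between genotypes passed the test in 5, against 0.159% of all genes (Tfcp2l1, Tbx3, Nr5a2, Klf4 and Esrrb), and in 12 with the block, against 0.951%. Esrrb went from 6258, 6029.7 and 7310.1 to 1328, 2139 and 2108 in Stag2-/- cells (log2 −1.81), while its value in wild-type cells was −0.32. For germline genes 8 of 20 were called higher in Stag2-/- cells, against 2.98% of all genes (median 0.49), none differed between genotypes by this test, and Ddx4 changed by 0.61 and 0.47. The formative gene Dnmt3b had 0.49 and 0.36, and its level in Stag2-/- siGLO cells, 15448, 14961 and 12561, was already above that of wild-type siStag1 cells.

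**Figure D5:**
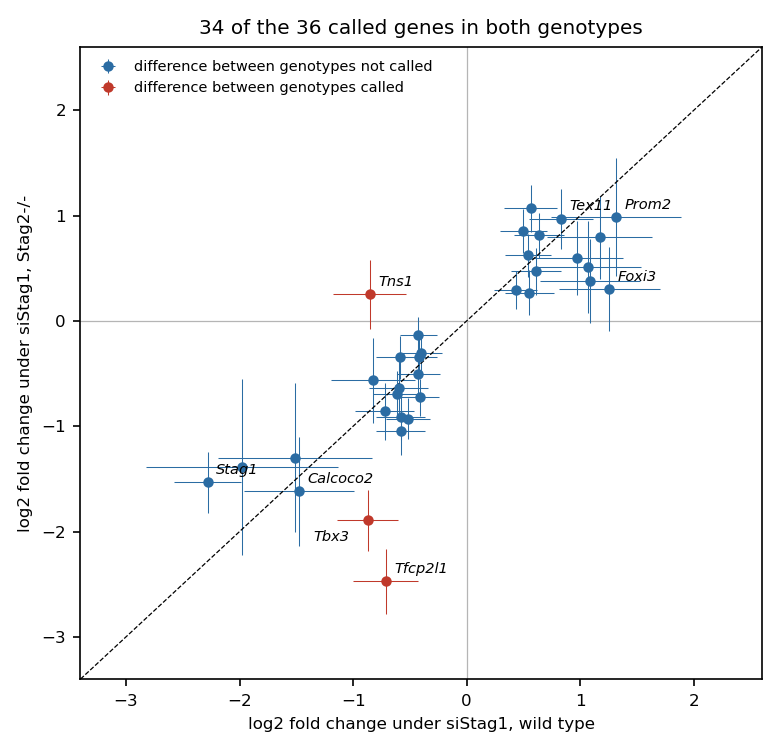
Log2 fold change under siStag1 in Stag2-/- cells against that in wild-type cells for 34 of the 36 genes called in wild-type cells, with 95% intervals and the line of equal change (dashed). Red marks Tfcp2l1, Tbx3 and Tns1, whose effect differed between genotypes, and 33 of the 34 points share their sign in both.

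The wild-type knockdown was last set beside the clone labelled Stag1-/-, which received siGLO. Stag1 mRNA in the clone was 1822, 2364 and 1871, and a count over the whole gene does not check the short deletion that the study's methods describe there. Direct comparison of wild-type siStag1 cells with the clone called 2326 genes (16.0%), 1134 higher and 1192 lower in siStag1 cells. That count was 1464 and 1472 without siStag1 replicate 2 or 3, 1515 without replicate 1 of the clone and 3850 with the block. Both states share wild-type siGLO as control, and their values are set side by side below. Here log2 values are those of siStag1 cells over the clone.

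Genes that fell after knockdown were found at several levels in the clone. Tfcp2l1 was 5821, 6255 and 5036 in the clone against 4834, 4593 and 4721 in siStag1 cells, a difference that did not pass the test (−0.27, adjusted p = 0.22). Tbx3 was 436, 352 and 416 in the clone against 1142, 1045 and 1316, so siStag1 cells were higher (log2 1.54, adjusted p = 1.57e-06). Tns1 was 147, 124 and 128 in the clone against 211, 207 and 208 (log2 0.64, adjusted p = 0.0145). For Tbx3 and Tns1 the clone was thus lower still than the knockdown. Ckb was 5816, 4812 and 4782 in the clone, above every wild-type library of either siRNA (log2 −1.31, adjusted p = 5.02e-06). Abca1 (log2 0.18, adjusted p = 0.575) and Calcoco2 (log2 −0.33, adjusted p = 0.422) did not pass the test against the clone.

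The rises showed a similar mixture. Tex11 was 188, 198 and 189 and Ddx4 616, 727 and 664 in the clone, both lower than in siStag1 cells (log2 1.10 and 0.74, adjusted p = 6.35e-05 and 0.000261). The clone lay below wild-type siGLO for Tex11 and within or below it for Ddx4. Sox11 was 1703, 1754 and 1609 in the clone (log2 0.05, 95% interval −0.17 to 0.26) and Gja1 4487, 5207 and 5204 (log2 −0.15, −0.35 to 0.06), both near their levels after knockdown. The endoderm regulators were far lower in the clone than after acute loss. Sox17 was 9.82, 18.5 and 17.1 in the clone against 239.6 ± 13.4 (mean ± SD, n = 3) in siStag1 cells, and Gata6 was 64.8, 37.9 and 31.6 against 589.7, 522 and 580.2 (log2 3.97 and 3.66, adjusted p = 4.26e-06 and 1.25e-05). Among the largest differences, the hexokinase-like gene Hkdc1 was 11.8, 7.77 and 0.902 in the clone against 186, 187 and 207 in siStag1 cells (log2 4.83). In the other direction, the skeletal actin gene Acta1 was 505, 516 and 419 against 15.1, 29.4 and 55 (log2 −3.83). Klb, the co-receptor beta-klotho, held 1 to 3 counts per library of the clone and 5 in all, against 320 in the 3 siStag1 libraries. The depth-corrected ratio was 67.7, with an interval of 28.7 to 210 that covers counting error only and not the spread between libraries.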

How the data were processed

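Polyadenylated RNA of mouse ES cells was sequenced in 15 libraries, of which the 3 wild-type siGLO and 3 wild-type siStag1 libraries are compared here. The authors aligned 150 bp paired-end reads and deposited raw counts per gene, without normalization. The submitters' processing notes name STAR, DESeq2 and mm10, and the counting tool, annotation and strand setting are not given in the sources used here. The files list 23412 genes. Summary lines that name no gene were left out, and 76.6% to 78.3% of each of the 6 libraries' total fell on genes. No column of another series was present (0).

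Counts were fitted with edgeR 4.0.16 in R 4.3.3, after filterByExpr by condition (minimum count 10, minimum total 15) and TMM scaling. The fit had 1 coefficient per condition over all 15 libraries, so the 5 conditions shared 1 estimate of the spread, and two-sided glmQLFTest contrasts were adjusted by Benjamini and Hochberg over the 14508 genes tested, with a threshold of 0.1. The SE is the size of the log2 fold change divided by the square root of F, which gave no value for 1 gene. Libraries with the same replicate number in their labels deviated together from their condition means in wild-type cells (r of 0.224 to 0.530 across 12874 genes in the 3 pairs). Over all 15 libraries, which the block also covers, same-numbered r ran from −0.093 to 0.723. The pairing comes from the replicate numbers, and what they mark is not stated. No 2 replicates were copies of each other (chi-square over degrees of freedom 4.70 to 26.8).

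Named genes are Stag1, Stag2 and other cohesin genes, the 12 largest rises and falls among calls with a mean of at least 50 normalized counts and no overlap, called members and the highest-count members of the gene lists, and the neighbours of Stag1. The genes called below that mean were named after their values were seen, as were most list members named as called with the block. A few genes that meet the rule are not reported here. The members and lists were chosen with earlier results of these data known. Alternatives were DESeq2 1.42.0, its size factors or library size in edgeR, other filters, an adjusted p under 0.05, the block, fits of only those libraries that a comparison uses, and each library left out. The tests were also run on simulated counts with known changes. Those counts held no effect of the replicate number, so they do not cover that feature of the data. Positions come from GENCODE M21 (98.5% of names placed), and promoters from RefSeq. Figures were drawn with matplotlib 3.10.9.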

Additional observations from a re-analysis of the deposited data

Results flagged for a closer look

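The effect of siStag1 differed between Stag2-/- and wild-type cells in 23 genes by edgeR's test of the difference itself (adjusted p under 0.1), and 20 of the 23 had the more negative effect in Stag2-/- cells. The differences, given as log2 fold change in Stag2-/- minus that in wild-type cells, were −1.76 for Tfcp2l1, −1.49 for Esrrb, −1.11 for Klf4, −1.02 for Tbx3 and −0.90 for Nr5a2, all naive pluripotency genes. They were −2.24 for Inhbb, which encodes a subunit of activin B, and −2.20 for Ntn1, which encodes the guidance cue netrin 1. Tns1 (1.11) and Fgfr2 (1.29), an FGF receptor gene, differed in the other direction. Fgfr2 shares exon sequence with the counted gene Ctbp2. Knockdown of Stag1 left 20.6% of its mRNA in wild-type and 34.5% in Stag2-/- cells, and the part of this in the differences was not tested. The calls for Fgfr2, Klf4, Nr5a2, Tbx3 and Tns1 were each lost without at least 1 library, with adjusted p up to 0.213, 0.233, 0.169, 0.169 and 0.262.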

How the results depend on the processing

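The fall of Stag1 in wild-type cells was called under every alternative run, between −2.41 and −2.14 over the fits that left out 1 wild-type library. None of the 34 called genes described here changed direction under any alternative. The count of 36 was 22 at an adjusted p under 0.05, 131 with DESeq2, 126 with only the 6 libraries compared, 236 with the replicate block, 1493 with both of these, 318 with the block set within each genotype (an alternative chosen after seeing the data), 1 to 15 without 1 of the 6 wild-type libraries, and 28 to 57 without 1 of the Stag2-/- libraries, the highest without siGLO replicate 1. All 34 remained called with DESeq2, its size factors, the block and only the libraries compared, 30 with library size alone, 27 with no filter and 32 with at least 10 counts in every library, where the other 2 were not tested. The 924 calls in Stag2-/- cells were 548 at an adjusted p under 0.05, 224 with only the libraries compared, 2049 with the block, 2370 with the block within genotype, and 416 to 1484 without 1 library of those cells. The 23 differences between genotypes were 102 with DESeq2, 14 with only the libraries compared, 138 with the block, 268 with the block within genotype and 13 to 76 without 1 library. The 2326 differences from the Stag1-/- clone were 3850 with the block and 1464 to 2404 without 1 of the libraries compared. The share of called genes with the same direction in Stag2-/- cells was 93.3% to 100% without 1 library. Each value of 100% rested on only 1 to 6 called genes, and without siStag1 replicate 2 the only 1 was Stag1 itself. The difference in knockdown depth between genotypes passed the threshold with DESeq2 (0.74, adjusted p = 0.0536) and the replicate block (0.75, adjusted p = 0.0253), while its estimate was 0.75 in the main fit. The log2 fold change of Pou5f1 was −0.052 and ran from −0.091 to 0.00067 without 1 library. The stricter threshold gives fewer calls by construction, and the cause of the other changes was not tested. Among the 34 genes the block, which rests on the pairing by replicate number, removed no call. Scaling moved the median of all genes by under 0.1. With 3 libraries per group, the median SE of 0.155 on the log2 scale limits which small changes can be called.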

Other observations

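Gene groups outside the comparisons above held few or no calls in wild-type siStag1 cells, where 0.248% of all genes were called (1.63% with the block). Among 15 genes of the LIF and STAT3 pathway only Tfcp2l1 was called, with a list median of 0.025 on the log2 scale, and in Stag2-/- cells 7 of the 15 were called lower, against 3.39% of all genes. Among 31 genes of cholesterol synthesis and transport only Abca1, an exporter rather than an enzyme of synthesis, was called (median 0.029). No member was called with or without the block among 30 lysosome and autophagy genes (median −0.042), 22 histone genes (−0.11), 17 genes of one-carbon and threonine metabolism (−0.061) or 24 targets of SRF and YAP, whose median of −0.00023 changed sign with library size scaling (0.0042). Of 19 NOTCH pathway genes and 35 imprinted genes none was called without the block, with medians of 0.13 and 0.089.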
